A study of Mus musculus with 2 samples.

Results

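Imprinted genes are genes of which 1 parental copy is silenced, so that the RNA comes mainly from the mother's or mainly from the father's chromosome. The 38 genes described here were taken by symbol from the 32285 genes of the deposited feature lists, and each symbol matched 1 row. By common knowledge of the mouse, 16 are expressed from the maternal copy and 22 from the paternal copy, in 18 loci. UMI (unique molecular identifier) counts per gene do not tell the parental copies apart, so this grouping is background and was not measured here. The levels below are the sum over both copies.

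The data were 2 droplet-based single-cell RNA sequencing libraries from dissociated whole mouse embryos at embryonic day 9.5. One library came from wild-type embryos (Usb1 +/+). The other came from Usb1-null embryos (Usb1 -/-), which carry a germline deletion of exons 1 to 2 of Usb1, the gene of a nuclease that trims U6 small nuclear RNA, and which arise from crosses of heterozygous mice. The comparison asks how the cells of whole embryos differ when this nuclease is absent. No other allele or agent is given for either group, and the sources used here give neither the strain nor the number of embryos behind a library. With 1 library per group there was no replicate, no test was possible, and each difference is between these 2 libraries. All intervals are 95% intervals for counting error only.

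Most imprinted genes lie in clusters in which a methylated control region, inherited from the egg or the sperm, sets which copy is transcribed. Many of the protein-coding members regulate fetal and placental growth, with paternally expressed growth promoters such as Igf2 and maternally expressed growth restrainers such as Igf2r, Cdkn1c and Grb10. Several loci also produce a long noncoding RNA, such as H19, Airn, Kcnq1ot1 or Meg3.

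After the study's filter, 15161 wild-type and 13018 Usb1-null cells were kept, with 21732106 and 33383886 UMIs. The median was 1243 and 2299.5 UMIs per cell, 1.85-fold apart, and 61 cell barcodes occurred in both libraries, 0.402% and 0.468% of each. The wild-type library held 53276 UMIs of Xist and 14 UMIs of 4 Y-linked genes, and the Usb1-null library held 26 and 23463, so in every result the sex of the embryos and the genotype cannot be told apart. Usb1 itself had 68 and 47 UMIs, a ratio in CPM (the UMIs of a gene scaled to a library total of 1e+06) of 0.450 (0.303 to 0.662). Reads from a transcript's 3′ end lie outside the deleted exons, so this count does not check the deletion. Summed primitive erythroid markers stood at 866 CPM in the wild-type and 221 CPM in the Usb1-null library, and 10 mature liver genes at 4.74 and 73.5 CPM. Whether depth, sex or these RNAs play a part in the values of imprinted genes was not tested.

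Cells were grouped into 20 clusters without using the 38 genes. Of these, 17 held at least 100 cells in each library and were compared. Names were given from 21 marker lists and carry the suffix "-like". Clusters 6, 10 and 16 stayed unnamed among the 17: cluster 6 carried neural crest and craniofacial mesenchyme markers in equal number (8 each), cluster 10 had low median UMIs (709 and 1123) and was led by no listed marker, and cluster 16 was led by BC006965, Luzp2 and Lmx1a. The name yolk sac endoderm and liver-like fell to both cluster 14 and cluster 18. It stands below for cluster 14, because cluster 18 (52 and 48 cells, led by Alb, Apoa2 and Cps1) was too small to be compared. Cluster 14 had all 10 yolk sac endoderm and liver markers raised, with 3 among its leading genes, but also 7 of 10 gut and pharyngeal endoderm markers, with 0 among them. The gut list summed to 1017 and 959 CPM there, its highest among the compared clusters of both libraries, against 428 and 1695 CPM of the yolk sac and liver list. Values in cluster 14 are therefore not read as those of yolk sac or liver alone.

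All 38 genes had at least 1 UMI in each library, and together they made up 1.04% of wild-type and 0.984% of Usb1-null UMIs. The 16 maternally expressed genes took 0.484% and 0.456%, and the 22 paternally expressed genes 0.553% and 0.528%. Among the 17 clusters, the share of all 38 was lowest in the hindbrain and spinal cord neural progenitor-like cluster of the wild-type library (0.658%) and highest in its splanchnic lateral plate mesoderm-like cluster (1.501%). In the Usb1-null library it was lowest in cluster 10 (0.658%) and highest in the yolk sac endoderm and liver-like cluster (1.58%). The clusters named for mesodermal or endodermal cells thus stood above those named for neural cells in both libraries, apart from the primitive erythroid-like one (0.733% and 0.690%). The surface ectoderm-like cluster also stood above the neural ones (1.10% and 1.04%). Levels of different genes are not ranked against each other, because the values are not per transcript length and the sources used here do not give whether intronic reads were counted.

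**Figure D1:**
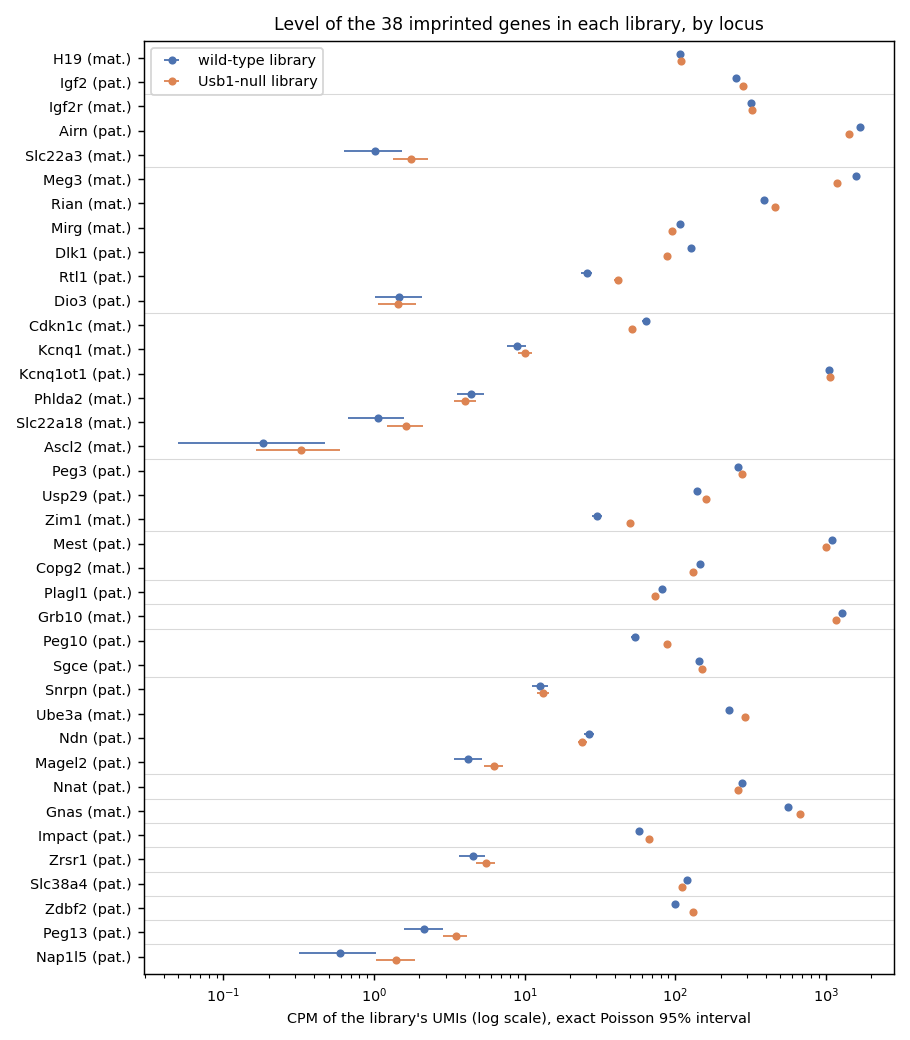
CPM (x axis, log scale) of each of the 38 imprinted genes (y axis, grouped by locus, with the expressed copy as mat. or pat.) in the wild-type and Usb1-null libraries. Points are library sums and bars are exact Poisson intervals; most pairs of points lie close together, from Ascl2 at 0.184 and 0.330 CPM to Airn at 1679 and 1423 CPM.

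Between the libraries, 33 of the 38 genes could be compared, those with at least 100 UMIs over both. Of these, 4 exceeded their wild-type level by 1.5-fold or more in the Usb1-null library: Zim1, Peg10, Rtl1 and Peg13. With each cell thinned to 500 UMIs, Zim1 and Peg10 kept this call. Rtl1 then had a ratio of 1.47 (1.22 to 1.77), and Peg13 one of 2.15 (1.05 to 4.60) on 13 and 24 UMIs, too few to be compared. Among all 15031 genes compared, 6.95% were this much higher. None of the 33 was 1.5-fold lower, against 5.43% of all genes. Of these 4, all but Zim1 were paternally expressed. The median log2 ratio (null to wild-type, after adding 1 CPM to each) was 0.02 over 13 maternally expressed genes and 0.08 over 20 paternally expressed genes. It was 0.06 over all 33 and -0.01 over all genes. With thinned cells these 13 and 20 genes had medians of 0.21 and 0.03, so the order turned. By expressed copy, 7 of 13 maternal and 13 of 20 paternal genes had a ratio above 1, against 7275 of all 15031 genes compared. The maternal genes include Ube3a (ratio 1.27) and Gnas (1.20), whose RNA does not come from the maternal copy alone in all cells. Weighting the Usb1-null clusters by their shares of the wild-type UMIs gave medians of -0.01 for the maternal and 0.05 for the paternal genes.

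**Figure D2:**
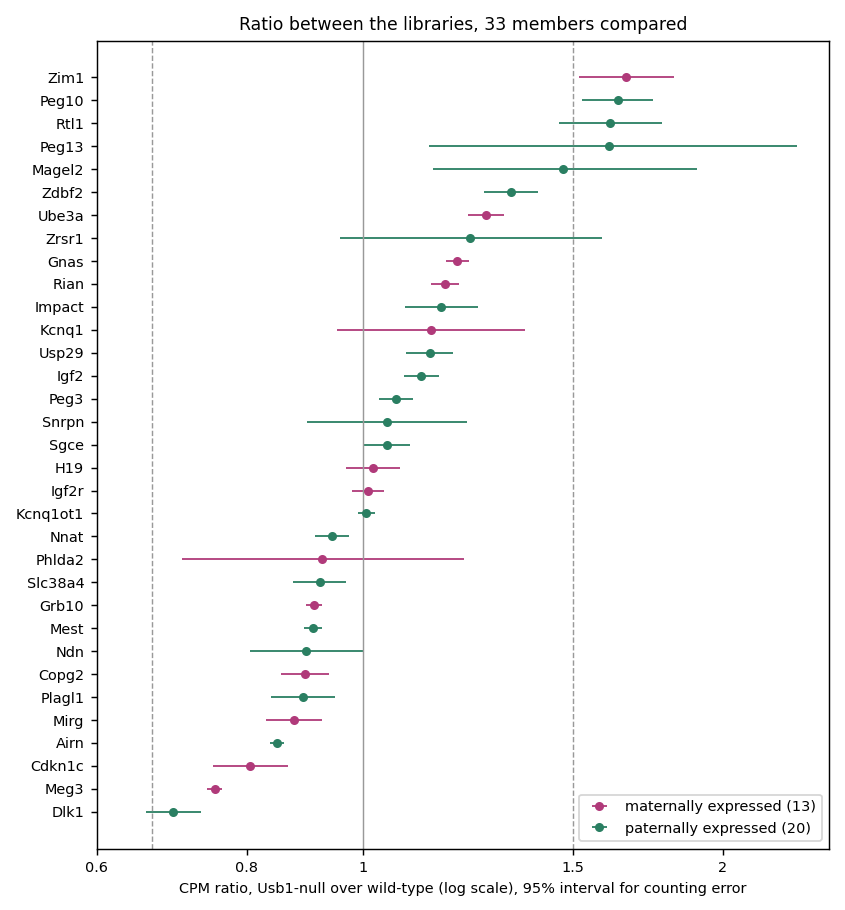
CPM ratio, Usb1-null over wild-type (x axis, log scale), of the 33 genes compared (y axis, in order of the ratio), coloured by expressed copy. Bars are counting intervals, the solid line marks 1 and the dashed lines 1.5-fold either way; Zim1, Peg10, Rtl1 and Peg13 lie beyond the upper line and Dlk1, at 0.695, is nearest the lower one.

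The Igf2-H19 locus pairs Igf2, the main fetal insulin-like growth factor, with H19, a noncoding RNA transcribed downstream of it. Igf2 stood at 252 CPM (246 to 259) in the wild-type library and 282 CPM (277 to 288) in the Usb1-null library, a ratio of 1.12 (1.08 to 1.16). H19 stood at 107 CPM (103 to 111) and 109 CPM (106 to 113), a ratio of 1.02 (0.969 to 1.08). Both were highest in the endothelial-like cluster. There Igf2 reached 585 and 619 CPM and H19 228 and 291 CPM. Igf2 was lowest in the floor plate and ventral neural tube-like cluster of the wild-type library (52.9 CPM) and the midbrain neuroepithelium-like cluster of the Usb1-null library (69.5 CPM). H19 was lowest in the midbrain (32.2 CPM) and the roof plate and dorsal neural tube-like cluster (29.2 CPM). Both genes were thus low in neural clusters and high in endothelium in each library. The 2 RNAs did not keep a fixed ratio across cell types. Igf2 gave 0.640 and 1.02 UMIs per H19 UMI in the primitive erythroid-like cluster and 3.55 and 3.28 in cluster 10.

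At the Igf2r locus, Igf2r encodes the receptor that takes up and clears IGF2, and Airn is the noncoding RNA that silences it in cis on the paternal copy. Airn runs on the opposite strand and shares 28354 bases with Igf2r in the GENCODE M21 annotation of GRCm38. The sources used here do not say whether the counting used strand, so reads in the shared stretch are uncertain between the genes. Igf2r stood at 318 CPM (310 to 325) and 321 CPM (315 to 327), a ratio of 1.01 (0.981 to 1.04). Airn stood at 1679 CPM (1661 to 1696) and 1423 CPM (1410 to 1436), a ratio of 0.848 (0.836 to 0.859), and was lower in 15 of 17 clusters. The UMIs of Airn per UMI of Igf2r were 5.28 in the wild-type and 4.43 in the Usb1-null library, and lower in 14 of 17 clusters.

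Igf2r was highest in the cardiomyocyte-like cluster, at 861 and 783 CPM, and lowest in neural tube clusters, at 105 CPM in the roof plate-like cluster of the wild-type library and 126 CPM in the floor plate-like cluster of the Usb1-null library. Airn was highest in cardiomyocytes in the wild-type library (4173 CPM) and in the yolk sac endoderm and liver-like cluster in the Usb1-null library (3448 CPM), and lowest in the roof plate-like cluster in both (439 and 412 CPM). The gene and its antisense RNA therefore had nearly the same order of clusters, with a Spearman rho over 17 clusters of 0.98 and 0.95. Slc22a3, an organic cation transporter of the same locus, had 22 and 59 UMIs and was not compared.

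The Dlk1-Dio3 locus held members that differed in both directions between the libraries. Its maternal copy gives Meg3, a noncoding RNA, Rian, a host of small nucleolar RNAs, and Mirg, a host of microRNAs. Its paternal copy gives Dlk1, a transmembrane protein related to Notch ligands, Rtl1, a gene derived from a retrotransposon, and Dio3, an enzyme that inactivates thyroid hormone. The 250 bases before the starts of Meg3 and Rian are shown because the RNAs of these genes are often described as parts of 1 long transcription unit and yet differed between the libraries in opposite directions. They are from RefSeq on GRCm38.p6, plus strand, with CpG dinucleotides in capitals, at chr12:109540746-109540995 for Meg3 and chr12:109603695-109603944 for Rian.
Meg3: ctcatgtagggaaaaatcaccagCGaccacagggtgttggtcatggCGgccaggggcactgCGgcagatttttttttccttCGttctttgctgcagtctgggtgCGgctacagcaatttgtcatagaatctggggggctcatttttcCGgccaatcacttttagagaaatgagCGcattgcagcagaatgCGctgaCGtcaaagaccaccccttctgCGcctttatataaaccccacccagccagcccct
Rian: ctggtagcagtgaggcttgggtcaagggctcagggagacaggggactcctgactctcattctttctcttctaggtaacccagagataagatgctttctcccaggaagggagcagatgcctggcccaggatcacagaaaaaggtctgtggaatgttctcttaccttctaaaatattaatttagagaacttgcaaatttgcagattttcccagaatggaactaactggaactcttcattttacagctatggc
The Meg3 stretch holds 10 CpGs and the Rian stretch 0.

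Meg3 stood at 1582 CPM (1566 to 1599) in the wild-type library and 1191 CPM (1179 to 1203) in the Usb1-null library. The ratio was 0.753 (0.742 to 0.764), and Meg3 was lower in 16 of 17 clusters. The exception was the yolk sac endoderm and liver-like cluster, with 2688 and 3317 CPM. The small cluster 18 of the same name differed the other way, with 583 and 45 UMIs of Meg3 (7934 and 676 CPM). The cells of cluster 18 may not be alike between the libraries, because its 10 mature liver genes summed to 626 and 23310 CPM. Rian stood at 392 CPM (383 to 400) and 459 CPM (452 to 466), a ratio of 1.17 (1.14 to 1.20), with higher values in 13 of 17 clusters. Mirg stood at 108 CPM (104 to 112) and 94.5 CPM (91.3 to 97.9), a ratio of 0.876 (0.830 to 0.925), and was lower in 11 of the 16 clusters with at least 20 UMIs. Meg3 and Mirg were thus lower and Rian higher in the Usb1-null library, although the 3 RNAs come from the same copy of 1 locus.

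The number of Meg3 UMIs per Rian UMI states this difference independently of the scaling to library size. It was 4.04 (3.94 to 4.14) in the wild-type library and 2.60 (2.55 to 2.64) in the Usb1-null library. Over the 17 clusters it ran from 2.82 to 5.33, with a median of 3.91, in the wild-type library, and from 2.11 to 3.12, with a median of 2.62, in the Usb1-null library. It was lower in the Usb1-null library in 16 clusters. The exception was cluster 10, the cluster with low UMIs, at 2.82 and 2.93. With each cell thinned to 500 UMIs the ratio was 4.20 and 2.67, and with called doublets removed 4.01 and 2.57. Within each library, Meg3 and Rian still had nearly the same order of clusters (rho of 0.96 and 0.98).

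**Figure D3:**
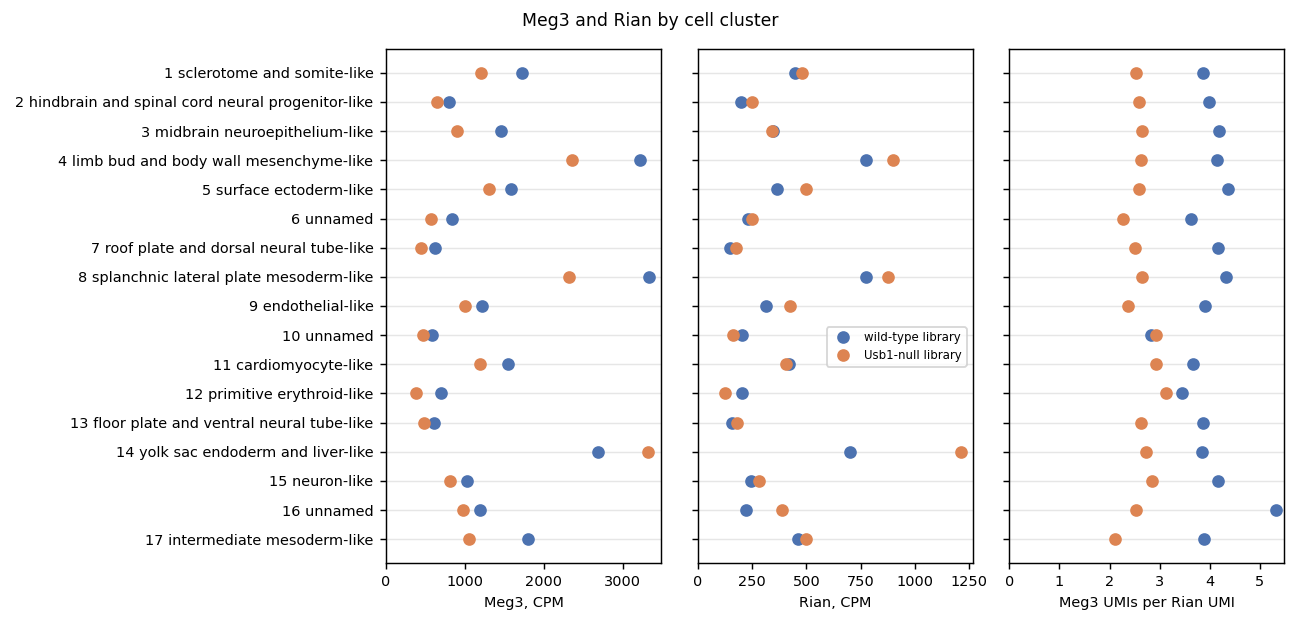
Meg3 CPM, Rian CPM and Meg3 UMIs per Rian UMI (x axes, from 0) in each of 17 cell clusters (y axis) of the wild-type and Usb1-null libraries, 1 point per cluster and library. The ratio in the right panel lies between 2.11 and 3.12 in the Usb1-null library and is above this range in every wild-type cluster except cluster 10, at 2.82.

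Of the protein-coding genes of the locus, Dlk1 stood at 127 CPM (122 to 132) and 88.3 CPM (85.2 to 91.6). Its ratio of 0.695 (0.660 to 0.732) was the lowest among the 33 genes. With cells thinned to 500 UMIs its log2 ratio was -0.40 and that of Meg3 was lower, at -0.42. Dlk1 was lower in 12 of 16 clusters, and in the yolk sac endoderm and liver-like cluster it was higher, at 86.3 and 185 CPM. Rtl1 differed the other way, with 25.9 CPM (23.8 to 28.1) and 41.6 CPM (39.5 to 43.9), a ratio of 1.61 (1.46 to 1.78). It was higher in 13 of 14 clusters, the exception being the floor plate-like cluster at 21.6 and 13.4 CPM. The maternal copy carries RNAs antisense to Rtl1, and without knowledge of strand use the Rtl1 count may hold them. Dio3 had 32 and 48 UMIs and was not compared. Its 28.8 and 16.0 CPM in the yolk sac endoderm and liver-like cluster and 18.8 and 15.3 CPM in the intermediate mesoderm-like cluster stood above the at most 3.79 CPM in every other cluster compared.

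The yolk sac endoderm and liver-like cluster, where Meg3, Dlk1 and Rtl1 were all higher in the Usb1-null library, was also the compared cluster in which Rtl1 differed most (19.2 and 94.9 CPM). In cluster 18 of the same name all 3 were lower in the Usb1-null library, Dlk1 with 66 and 5 UMIs (898 and 75.1 CPM) and Rtl1 with 8 and 3 UMIs (109 and 45.1 CPM). As said above, the cells of cluster 18 may not be alike between the libraries. Cluster 14 held 219 wild-type and 327 Usb1-null cells. Its summed yolk sac endoderm and liver markers stood at 428 and 1695 CPM, and its 10 mature liver genes at 3.20 and 125 CPM, with 9 and 2 of the 10 at 0. The part of these markers in the values of imprinted genes was not tested. Igf2 in cluster 14 stood at 198 and 242 CPM and H19 at 153 and 158 CPM, nearer to each other than Rian, at 700.1 and 1211 CPM.

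The Kcnq1ot1 locus holds Kcnq1ot1, the noncoding RNA that silences its neighbours on the paternal copy, and the maternally expressed genes Cdkn1c, an inhibitor of cyclin-dependent kinases, Kcnq1, a potassium channel, Phlda2, a restrainer of placental growth, Slc22a18, a transporter, and Ascl2, a transcription factor of trophoblast. Kcnq1ot1 stood at 1058 CPM (1044 to 1072) and 1065 CPM (1054 to 1077), a ratio of 1.01 (0.991 to 1.02). Cdkn1c stood at 63.7 CPM (60.4 to 67.2) and 51.4 CPM (49.0 to 53.9), a ratio of 0.806 (0.751 to 0.866), and was lower in 14 of 17 clusters. In the cardiomyocyte-like cluster, where it was highest, Cdkn1c stood at 188 CPM in both libraries. Its lowest values were 32.5 CPM in cluster 6 of the wild-type library and 12.6 CPM in the primitive erythroid-like cluster of the Usb1-null library. The highest cluster of Kcnq1ot1, the cardiomyocyte-like one, was 1.31- and 1.36-fold above the median cluster, and cluster 10 stood at 394 and 356 CPM.

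Kcnq1 itself had 193 and 338 UMIs, 8.88 CPM (7.67 to 10.2) and 10.1 CPM (9.07 to 11.3). It lay mainly in the endothelial-like cluster, at 66.1 and 73.5 CPM, against a median cluster of 4.65 and 7.24 CPM. The second cluster was the cardiomyocyte-like one in both libraries, at 20.3 and 15.4 CPM, and the lowest were the primitive erythroid-like cluster (1.45 CPM) and cluster 10 (0 UMIs). With each cell thinned to 500 UMIs, 3.12% of wild-type and 3.94% of Usb1-null endothelial-like cells had a Kcnq1 UMI. In cluster 10 it was 0 of 692 and 0 of 644 cells, which allows shares of up to 0.434% and 0.466%. The endothelial-like cluster also held 15.6% called doublets, and Kcnq1 still met the rule for restriction given below when these were removed. Kcnq1ot1 lies wholly within Kcnq1 on the other strand, so without knowledge of strand use, reads in the shared stretch are uncertain between the genes. The UMIs of Kcnq1ot1 did not peak in endothelium (1003 and 929 CPM). The part of such reads in the Kcnq1 values was not tested. Phlda2 had 95 and 135 UMIs, a ratio of 0.925 (0.706 to 1.22). Its log2 ratio turned from -0.09 to 0.15 with at least 1000 genes per cell and to 0.22 with thinned cells, both within counting error. Slc22a18 had 23 and 54 UMIs and Ascl2 4 and 11, and these were not compared.

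The Peg3 locus gives the zinc-finger gene Peg3 and Usp29, of the deubiquitinase family, from the paternal copy and Zim1, a further zinc-finger gene, from the maternal copy. Peg3 and Usp29 start head to head. The stretch between their RefSeq starts is shown because it separates the starts of a pair of members with like profiles. It covers 163 bases on GRCm38.p6 at chr7:6730420-6730582, plus strand, with its 5 CpGs in capitals. Peg3 starts on the minus strand at position 6730419 and Usp29 on the plus strand at 6730583.
Peg3-Usp29: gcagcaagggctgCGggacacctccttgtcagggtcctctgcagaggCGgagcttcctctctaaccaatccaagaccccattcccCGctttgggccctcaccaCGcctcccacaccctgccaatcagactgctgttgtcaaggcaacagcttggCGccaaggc

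Peg3 stood at 262 CPM (255 to 269) and 279 CPM (274 to 285), a ratio of 1.07 (1.03 to 1.10). Usp29 stood at 140.0 CPM (135 to 145) and 159 CPM (155 to 164), a ratio of 1.14 (1.09 to 1.19). Zim1 stood at 30.3 CPM (28.0 to 32.7) and 50.3 CPM (47.9 to 52.7), a ratio of 1.66 (1.52 to 1.82), the highest of the 33. This rank changed under alternatives. With clusters weighted by wild-type shares, its log2 ratio was 0.61 and that of Peg10 0.67. With at least 1000 genes per cell, it was 0.68 and that of Magel2 0.81. Zim1 was higher in 13 of 14 clusters, the exception being the primitive erythroid-like cluster with 23.2 and 12.6 CPM. The number of Zim1 UMIs per Peg3 UMI was 0.116 and 0.180, so the maternally expressed gene of the locus differed more than its paternally expressed neighbour.

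All 3 genes of the Peg3 locus were high in the yolk sac endoderm and liver-like cluster. Peg3 was highest there, at 709.7 and 731 CPM, and lowest in the hindbrain and spinal cord neural progenitor-like cluster, at 77.0 and 104 CPM. Usp29 was highest there in the wild-type library (479.5 CPM) and in the splanchnic lateral plate mesoderm-like cluster in the Usb1-null library (372 CPM). Zim1 reached 179 and 281 CPM there, 11.3- and 11.6-fold above its median cluster. It was lowest in cluster 10 (3.70 CPM) of the wild-type library and the roof plate-like cluster (8.34 CPM) of the Usb1-null library. Over the 17 clusters, Peg3 and Usp29 had a rho of 0.87 and 0.88, and Peg3 and Zim1 of 0.63 and 0.89.

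At the Peg10-Sgce locus, Peg10 is derived from a retrotransposon and needed for the placenta, and Sgce encodes epsilon-sarcoglycan. Both are paternally expressed and start 99 bases apart in the annotation, on opposite strands. Peg10 stood at 53.9 CPM (50.8 to 57.1) and 88.0 CPM (84.9 to 91.2), a ratio of 1.63 (1.53 to 1.75). It was higher in all 16 clusters with at least 20 UMIs. Sgce stood at 143 CPM (138 to 148) and 150 CPM (146 to 154), a ratio of 1.05 (1.00 to 1.10), with higher values in 8 of 17. The number of Peg10 UMIs per Sgce UMI was 0.377 (0.352 to 0.403) and 0.588 (0.562 to 0.615), and it was higher in the Usb1-null library in all 17 clusters. Unlike Peg3 and Usp29, the Peg10 and Sgce profiles over clusters had a rho of only 0.31 and 0.39. Peg10 was highest in the limb bud and body wall mesenchyme-like cluster (124 and 182 CPM) and lowest in the primitive erythroid-like cluster (17.4 and 30.2 CPM). Sgce was highest in the intermediate mesoderm-like cluster (232 CPM) and the neuron-like cluster (213 CPM), and also lowest in the erythroid one (69.6 and 68.1 CPM).

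The Snrpn-Ube3a locus is the mouse counterpart of the Prader-Willi and Angelman region. Ube3a, a ubiquitin ligase, is imprinted in neurons and expressed from both copies elsewhere. It stood at 228 CPM (222 to 235) and 289 CPM (283 to 295), a ratio of 1.27 (1.22 to 1.31), with higher values in 16 of 17 clusters. Its highest cluster stood 1.36- and 1.29-fold above the median cluster. Of the paternally expressed members, Snrpn, of the spliceosome, stood at 12.6 CPM (11.2 to 14.2) and 13.2 CPM (12.01 to 14.5), a ratio of 1.05 (0.899 to 1.22). Ndn, of the MAGE family, stood at 26.8 CPM (24.7 to 29.1) and 24.1 CPM (22.4 to 25.8), a ratio of 0.898 (0.806 to 1.00). With at least 1000 genes per cell, its log2 ratio turned from -0.15 to 0.04. Magel2, of the same family, had 92 and 208 UMIs, 4.23 CPM (3.41 to 5.19) and 6.23 CPM (5.41 to 7.14), a ratio of 1.47 (1.15 to 1.90). Magel2 was the gene just inside the 1.5-fold limit and Peg13, at 1.61, the gene just beyond it.

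Peg13, a noncoding RNA within Trappc9, had 47 and 116 UMIs, 2.16 CPM (1.59 to 2.88) and 3.47 CPM (2.87 to 4.17). The ratio was 1.61 (1.14 to 2.31), so among the 4 higher genes it rests on the fewest molecules. It lies within Trappc9 on the same strand, so its reads and those of unspliced Trappc9 RNA there cannot be told apart. Zdbf2, a zinc-finger gene, stood at 99.4 CPM (95.3 to 104) and 132 CPM (128 to 136), a ratio of 1.33 (1.26 to 1.40), with higher values in 14 of 17 clusters. Gnas, which encodes the stimulatory G protein alpha subunit in a complex locus with transcripts of either copy, stood at 563 CPM (553 to 573) and 676 CPM (667 to 685). Its ratio was 1.20 (1.17 to 1.23). Gnas alone among the 20 members with at least 20 UMIs in every cluster was higher in all 17, against 4.7% of the 4762 such genes. None of the 20 was lower in all 17, against 5.73%.

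The remaining members compared differed by less than 1.3-fold. Impact, a regulator of translation, had a ratio of 1.16 (1.09 to 1.25) and Zrsr1, a splicing factor gene within an intron of Commd1, of 1.23 (0.957 to 1.59). Nnat, a neuronal proteolipid gene, had a ratio of 0.942 (0.912 to 0.974), Slc38a4, an amino acid transporter, of 0.921 (0.875 to 0.968), and Plagl1, a zinc-finger transcription factor, of 0.891 (0.838 to 0.948). Grb10, an adaptor that restrains insulin and IGF receptor signalling, stood at 1285 and 1170.3 CPM, a ratio of 0.910 (0.897 to 0.925). Mest, of the hydrolase-fold family, stood at 1101 and 1002 CPM, a ratio of 0.909 (0.894 to 0.925). Copg2, a coat protein subunit whose end overlaps Mest by 912 bases, had a ratio of 0.895 (0.855 to 0.937). Nap1l5, within Herc3, had 13 and 47 UMIs and was not compared.

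Across cell types, a gene was called restricted when its highest cluster was the same in both libraries and at least 4-fold above its median cluster, with 1 CPM added. Of the 29 members with at least 100 UMIs in each library, 3 were restricted: Kcnq1 to the endothelial-like cluster, Dlk1 to the limb bud and body wall mesenchyme-like cluster and Zim1 to the yolk sac endoderm and liver-like cluster. Among all 12568 genes assessed the share was 11.5%. With thinned cells Kcnq1 was not assessed, with 68 and 71 UMIs, while its endothelial-like cluster still stood 13.5- and 10.8-fold above the median cluster. Dlk1 stood at 369.8 and 241 CPM in its highest cluster and at 319 and 196 CPM in the splanchnic lateral plate mesoderm-like cluster. Its lowest values, 23.6 and 20.8 CPM, were in the roof plate-like cluster. Thus the highest and second compared clusters of Dlk1 were both mesodermal in name, whereas Kcnq1 stood apart in 1 cluster. Dlk1 was not confined to these. The midbrain neuroepithelium-like cluster of the wild-type library and the yolk sac endoderm and liver-like cluster of the Usb1-null library also stood above its median cluster.

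**Figure D4:**
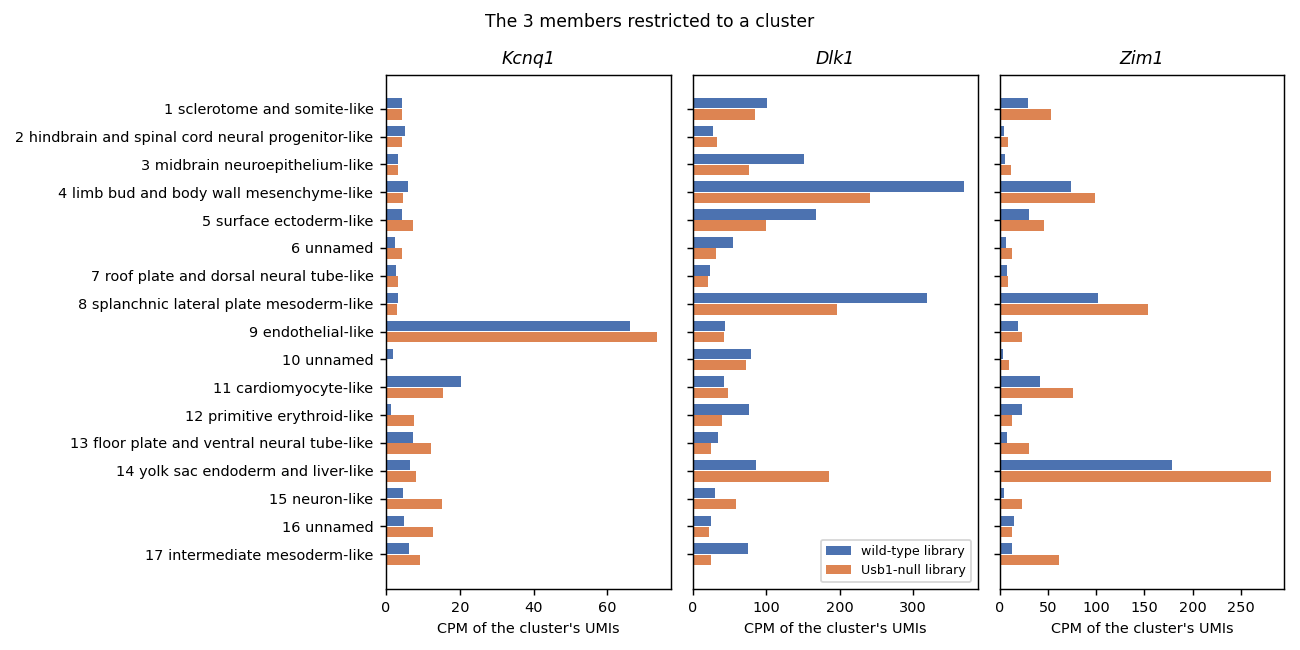
CPM (x axis, from 0) of Kcnq1, Dlk1 and Zim1 in each of 17 cell clusters (y axis) of the wild-type and Usb1-null libraries. Kcnq1 peaks at 66.1 and 73.5 CPM in the endothelial-like cluster, Dlk1 at 369.8 and 241 CPM in the limb bud and body wall mesenchyme-like cluster and Zim1 at 179 and 281 CPM in the yolk sac endoderm and liver-like cluster.

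Plagl1 was past 4-fold in each library but changed its highest cluster, from splanchnic mesoderm (288 CPM, with 272 CPM in endothelium) to endothelium (270.4 CPM, with 227 CPM in splanchnic mesoderm). The cardiomyocyte-like cluster stood at 235 and 238 CPM, and cluster 6 was the lowest, at 8.14 and 9.69 CPM. Plagl1 was therefore high in the same 3 clusters of both libraries. Nnat was highest in the neuron-like cluster of the wild-type library (518 CPM, 390.0 CPM in the Usb1-null library) and in the sclerotome and somite-like cluster of the Usb1-null library (393 CPM, 405 CPM in the wild-type). Slc38a4 was highest in the limb bud and body wall mesenchyme-like cluster (239 and 179 CPM). Mest was highest in endothelium (1539 and 1388 CPM) and lowest in the yolk sac endoderm and liver-like cluster (313 and 345 CPM), where Peg3 and Zim1 were highest.

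The highest cluster was the same in both libraries for 15 of the 29 members. It was the endothelial-like cluster for H19, Igf2, Kcnq1 and Mest, the cardiomyocyte-like cluster for Igf2r, Cdkn1c and Kcnq1ot1, the limb bud and body wall mesenchyme-like cluster for Dlk1, Peg10 and Slc38a4, and the yolk sac endoderm and liver-like cluster for Mirg, Peg3 and Zim1. It was cluster 10 for Gnas and Zdbf2. Some of these were near ties with the limb bud and body wall mesenchyme-like cluster of the wild-type library. There Mirg stood at 207.5 CPM, against 207.8 CPM (65 UMIs) in its highest cluster, and Mest at 1535 CPM, against 1539 CPM. For 9 of the 29, the highest cluster was less than 2-fold above the median in both libraries. The same shares over all genes were not computed, so these counts are descriptions only.

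**Figure D5:**
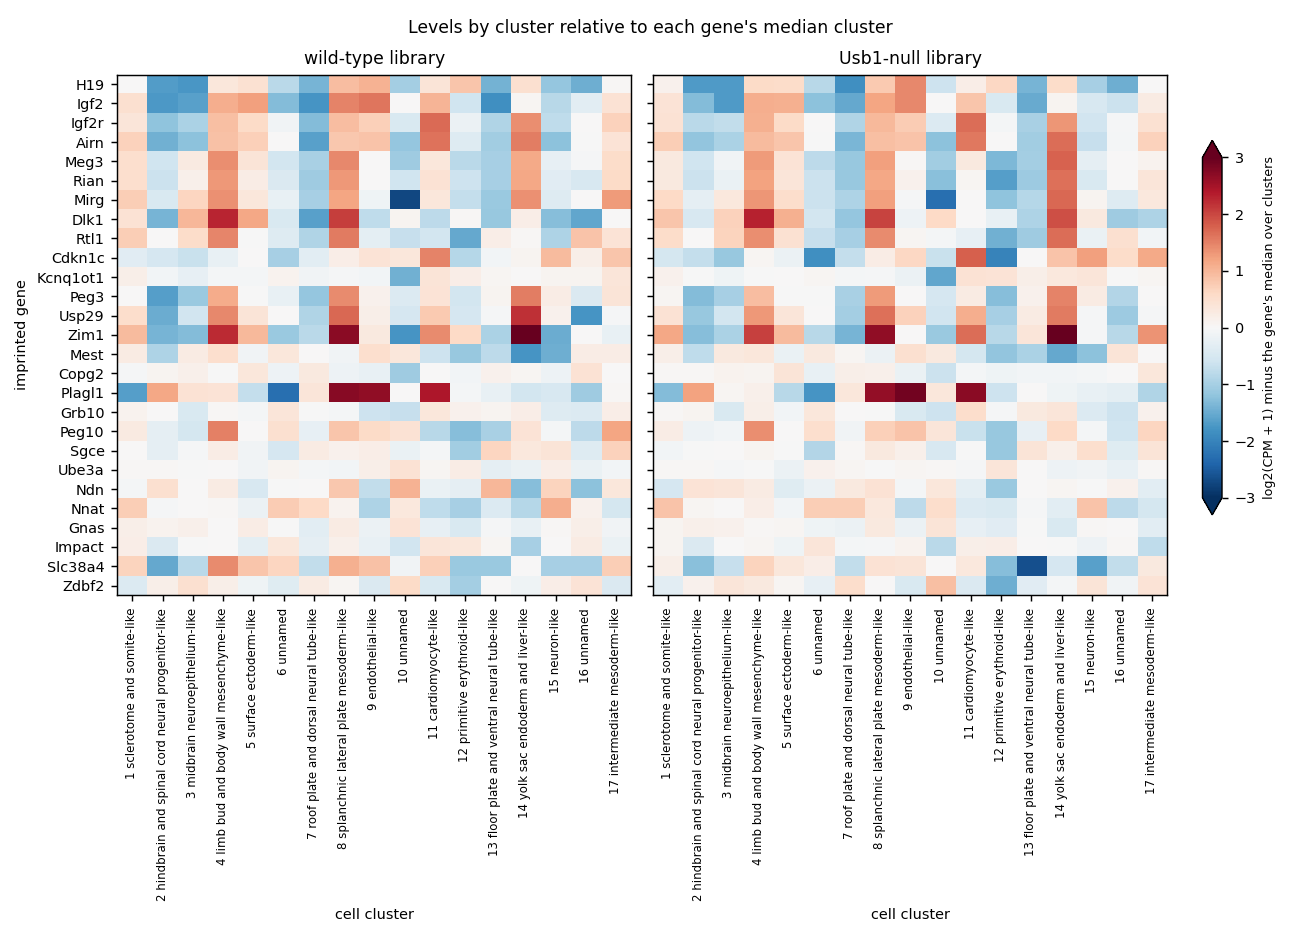
log2(CPM + 1) of 27 imprinted genes (rows) with at least 500 UMIs in each library in 17 cell clusters (columns), minus each gene's median over the clusters, for the wild-type (left) and Usb1-null (right) libraries. Red is above and blue below the median; genes of the Igf2, Igf2r, Dlk1-Dio3 and Peg3 loci are blue in most neural clusters and red in clusters 4 and 8, whereas Ube3a and Gnas are pale throughout.

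Some loci held members with like profiles over the cell types, and others did not. For the 19 pairs of the same locus among 27 genes with at least 500 UMIs in each library, the median Spearman rho over 17 clusters was 0.65 in the wild-type and 0.79 in the Usb1-null library. The Dlk1-Dio3 locus gave 10 of the 19 pairs, and the other 9 had medians of 0.63 and 0.88. For the 332 pairs of different loci it was 0.11 and 0.14. Clusters of 1 library share their depth and free RNA, so these values are descriptions. The highest pairs were Igf2r and Airn, Meg3 and Rian, Meg3 and Mirg (0.97 and 0.94) and Rian and Mirg (0.93 and 0.94). Igf2 and H19, from opposite copies, had 0.79 and 0.88. In 4 of the 8 loci with a pair, rho was under 0.4 in both libraries. These were Mest and Copg2 with -0.26 and -0.04, Ube3a and Ndn with 0.15 and -0.22, Cdkn1c and Kcnq1ot1 with 0.15 and 0.28, and Peg10 and Sgce with 0.31 and 0.39.

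Across loci, ordered by the lower of each pair's values in both libraries, the highest were 0.85 and 0.84 for Igf2 with Igf2r, the growth factor and the receptor that clears it, and 0.84 and 0.88 for Airn with Zim1. Each gene's own profile in the wild-type library had a rho with its Usb1-null profile of 0.46 to 0.98, with a median of 0.90 over the 27 genes. The lowest were Ndn (0.46), Ube3a (0.52) and Copg2 (0.54), and the highest Igf2r (0.98) and Igf2 (0.97).

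Of the members, 30 had at least 1 RefSeq promoter window on GRCm38.p6, 46 windows in all, each from 250 bases before to 50 bases after a start. The letters TGCCGC, the core of the sequence bound by ZFP57, which maintains imprints, were searched on both strands. They occurred in 12 of the 46 windows (26.1%), of 11 genes, and in 11.6% of all 32851 windows. The median number of CpGs was 13 per member window and 7 per window of all genes. A match is a description of the letters and says nothing of binding in these cells.

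Other genes of the same biology were read from fixed lists. Of 35 other imprinted genes in the feature lists, 30 were compared: none was 1.5-fold higher and 1 was lower, with a median log2 ratio of -0.04. The lower gene was Tspan32 (11.4 and 3.06 CPM, ratio 0.269) and the highest ratio was that of Sfmbt2, a polycomb-related gene (24.1 and 31.8 CPM, 1.32). Of 24 factors that set or keep imprints, 21 were compared and none passed 1.5-fold either way. Their ratios ran from 0.907 for Tet3 to 1.35 for Tet1, both methylcytosine dioxygenases. Zfp57 stood at 30.9 and 28.5 CPM and Dnmt1, the maintenance methyltransferase, at 84.5 and 98.3 CPM.

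Of 20 genes of IGF signalling, 18 were compared, 1 was higher and none lower. Igfbp3, which binds IGFs, stood at 14.3 and 24.3 CPM, a ratio of 1.70 (1.49 to 1.95), and Igfbp2, of the same family, at 162 and 122 CPM, a ratio of 0.753 (0.719 to 0.788). Of 15 trophoblast markers 4 were compared, with Cdx2 at 0.966 and 2.82 CPM and Krt8 at 33.9 and 19.9 CPM. The list summed to 76.9 and 55.1 CPM, and 4 and 6 of its 15 genes were at 0. Krt8 (737 and 663 UMIs) and Krt18 (731 and 840 UMIs) held most of its 1672 and 1840 UMIs. Both were also surface ectoderm markers in the naming of clusters, and Cdx2 a gut marker. The sum is therefore not read as trophoblast RNA. Of the 10 mature liver genes, 7 were compared and all 7 were higher, by a log2 ratio with 1 CPM added of 0.76 for Fgb (2.02 and 4.13 CPM) to 4.40 for Alb (0.966 and 40.4 CPM). In the Usb1-null clusters compared, that list summed to between 7.60 and 125 CPM. This range leaves out the small cluster 18 (52 and 48 cells), which had Alb, Cps1, Mup3 and Fabp1 of that list among its 10 leading genes.

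As shares of cells after thinning each cell to 500 UMIs, Airn was found in 45.7% of wild-type and 42.3% of Usb1-null cells, Meg3 in 40.9% and 35.6%, and Mest in 40.2% and 37.8%. The lowest clusters held 16.3% and 18.0% for Airn, 13.4% and 11.6% for Meg3, and 11.4% and 13.1% for Mest. Without thinning the shares of Airn were 67.5% and 77.0%, and those of Meg3 61.7% and 69.3%, so the deeper library stood higher unthinned and lower thinned for both. Peg10 was found in 2.39% and 4.09% of thinned cells, Zim1 in 1.43% and 2.63%, and Rtl1 in 1.35% and 1.99%. The lowest clusters for Zim1 held 0 of 314 cells (floor plate-like, wild-type) and 0 of 156 cells (neuron-like, Usb1-null), which allows up to 0.955% and 1.92%. Its highest, the yolk sac endoderm and liver-like cluster, held 9.59% and 16.2%. For Igf2 the lowest clusters held 2.55% and 2.48% and the endothelial-like cluster 27.9% and 28.5%. These lowest shares are the level that free RNA may give in any cell.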

How the data were processed

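Per the labels and the study's methods, embryos were dissociated and cells barcoded with the 10x Genomics 3′ kit. The labels give nuclear RNA as the molecule, although single cells were suspended. The authors deposited 1 matrix of raw UMI counts per library, without normalization. The file headers and methods name Cell Ranger 6.1.2, and the submitters' processing notes name Cell Ranger 2.1.1 and mm10. The annotation, and the use of introns and strand, are not given there.

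Cells with 200 to 6000 genes and under 30% mitochondrial UMIs were kept, which removed 1 of 15162 and 16 of 13034 barcodes, each for exceeding 6000 genes. The study's stated number of Usb1-null cells equals the deposited barcodes before this filter, and its wild-type number lies below those kept here. Every deposited barcode held at least 500 UMIs. UMIs were added up over each library and each cluster and given as CPM. Poisson and Clopper-Pearson intervals are exact, and CPM ratios have exact conditional binomial intervals (SciPy 1.17.1). All cover counting error only. The steps were tested on simulated data.

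Clusters were made with Scanpy 1.11.5 and leidenalg 0.10.2 from 2000 variable genes per library, without the 38 members, mitochondrial, ribosomal, Xist, Tsix and Y-linked genes. The settings were 30 principal components, a NumPy version of Harmony over libraries, 15 neighbours and a resolution of 0.4. A name required 3 or more raised markers of a list, more than of any other list, with at least 1 among the 10 leading genes and no other list with more there. This rule was set after the clusters were seen, and these rebuilt names may differ from those of the study. Scrublet called 933 and 569 doublets, kept except in an alternative. The members and lists were chosen with earlier results of these data known. All 38 members are named, and of each other list the genes with the highest and lowest log2 ratio with 1 CPM added; Zfp57 and Dnmt1 were added after their values were seen.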

Additional observations from a re-analysis of the deposited data

Results flagged for a closer look

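Opposite signs of the log2 ratio in different cell clusters were common among the members. Rian and Dlk1 were past 1.5-fold both ways with counting intervals beyond 1, in clusters with at least 100 UMIs of the gene. With fewer UMIs, Slc38a4 was so too, at 30.1 and 46.2 CPM in the hindbrain and spinal cord neural progenitor-like cluster and 40.9 and 17.1 CPM in the floor plate-like cluster (17 and 14 UMIs). In each case there was 1 library per group, and the difference between clusters was not tested.

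Rian had a log2 ratio of 0.79 in cluster 16 and -0.70 in the primitive erythroid-like cluster. The values were 223 and 388 CPM in cluster 16 (121 and 119 cells) and 201 and 124 CPM in the erythroid-like cluster (598 and 189 cells, 18.9% called doublets).

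Dlk1 had a log2 ratio of 1.09 in the yolk sac endoderm and liver-like cluster and -0.96 in the midbrain neuroepithelium-like cluster. The values were 86.3 and 185 CPM in the first and 151 and 77.2 CPM in the second. The first cluster also differed in its mature liver genes, at 3.20 and 125 CPM, and their part in the Dlk1 value was not tested. In the small cluster 18 of the same name, Dlk1 stood at 898 and 75.1 CPM (66 and 5 UMIs).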

How the results depend on the processing

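The ratios were recomputed under 10 alternatives and the restriction under 8. The number of members at least 1.5-fold higher was 2 with cells thinned to 500 UMIs, where Rtl1 (a ratio of 1.47) and Peg13 (13 and 24 UMIs, under the minimum) were lost (3.86% of all genes), and 7 (12.1%) with a minimum of 20 UMIs, which added Nap1l5, Slc22a18 and Slc22a3. With at least 1000 genes per cell it was 5 (7.42%), with Magel2 added, and under the other alternatives it was 4. None was 1.5-fold lower under any of the 10. Thinning also moved the median log2 ratio to 0.0926 for 12 maternally and -0.0048 for 17 paternally expressed members, with Phlda2, Magel2, Zrsr1 and Peg13 under the minimum. Over the same 13 and 20 members as without thinning, an alternative chosen after seeing the data, the medians were 0.2103 and 0.035, so the order turned either way. Thinning gives each cell equal weight and leaves fewer UMIs; which of these moved the values was not tested. Of 297 values of single members, 282 moved by less than their counting error, and 15 by more. Among the 15, with at least 1000 genes per cell, Kcnq1ot1 moved from 0.01 to -0.07 and Ndn from -0.15 to 0.04. The number of restricted members was 2 with thinned cells, where Kcnq1 (68 and 71 UMIs) fell under the minimum (8.82% of all genes), and 4 with doublets removed (12.1%) or a higher resolution (12.4%), where Plagl1 was added, or a 3-fold limit (15.2%), where Igf2r was. The median over all genes shifted by less than 0.1 under each scaling. No paired analysis was possible because each group holds 1 library, and for the same reason no replicate could be left out. Members under 100 UMIs are limited by depth.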
